A study of Mus musculus with 28 samples.

Results

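The 38 genes described here encode the peroxisome proliferator activated receptor alpha (PPARA, gene Ppara), its coactivator Ppargc1a, and proteins that take up, activate, shuttle, oxidise, hydrolyse or store fatty acids in the liver, most of them known targets of PPARA. They were chosen by symbol, with earlier results of these data known. Every probe whose accession maps to one of the 38 symbols was a member. This gave 48 probes, 30 members with 1 probe and 8 with several. All 38 are among the 31663 features of the array, and all 38 are among the 20300 that passed the filter on dim probes, as each has 1 group or more in which all 4 arrays read well above background. Liver RNA of mice without fumarylacetoacetate hydrolase (Fah-/-), the last enzyme of tyrosine breakdown, was hybridised to 28 arrays, 1 sample each. NTBC, a drug that blocks an earlier step of that pathway and keeps toxic intermediates from forming, was given in the drinking water. Each of the 7 groups had 4 arrays: Fah-/- p53-/-, Fah-/- p21-/- and Fah-/- mice with no NTBC, Fah-/- p53-/- and Fah-/- mice on reduced NTBC, and Fah-/- p53-/- and Fah-/- mice on full NTBC, which was 7.5 mg/L.

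Every group carries the Fah deletion, so no group is a healthy liver. The labels give p53-/- and p21-/- as plain null genotypes with no Cre or promoter, name neither age nor sex, and do not say whether samples were separate animals, so p-values measure the spread between these samples. The reduced dose stands as 25% in the sample labels and as 2.5% for 3 months in the treatment notes, and the time without NTBC is one that the sources used here do not give. Fah-/- p21-/- mice were measured with no NTBC alone.

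A level is the log2 of the processed intensity minus the log2 of the array's 75th percentile, so that 0 is that array's own 75th percentile, and a step of 1 is a doubling. Levels compare samples for 1 probe and never 1 probe with another. The 75th percentile lay between 251.8 and 578.1 intensity units, and 54.8% to 68.5% of probes were well above background on an array. The Fah probe was well above background in every group, at -0.32 to -0.03 in Fah-/- on full NTBC and -2.72 to -1.82 with no NTBC, so it does not check the shared deletion. Of 2 Trp53 probes, 1 was lower on all p53-/- arrays at each dose (-3.28 to -2.32 against -0.68 to -0.30 in Fah-/- with no NTBC), while the other overlapped between the genotypes at every dose. The probe for Cdkn1a, the gene of p21, read 3.09 to 3.57 in Fah-/- p21-/- and 4.17 to 4.41 in Fah-/- mice with no NTBC, and as its place relative to the deleted part is not given here it does not check that label. These 3 genes were looked up for that check after their values were seen. Xist or Ddx3y marked all 4 Fah-/- p53-/- arrays with no NTBC and Fah-/- p21-/- replicates 1 and 2 as female, and the other 22 arrays as male. Doses were read on different scan days, and no slide held both genotypes on full or on reduced NTBC. Dose therefore cannot be told apart from scan day, nor genotype at these 2 doses from slide. The arrays with no NTBC lay on 3 slides that held 2 genotypes each. The female Fah-/- p21-/- arrays had another slide and scan day than the male ones. A term for sex rests on these arrays alone, so it cannot tell sex from slide or scan day. Hepatocyte markers (6 of 8 measured) were all well above background in every group, which fits the label liver. As these are bulk samples, fewer cells of a type and less RNA per cell cannot be told apart.

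In a fed liver fatty acids are stored or exported. In fasting, fatty acids bind PPARA, which pairs with the retinoid X receptor on a response element built of 2 hexamers (AGGTCA) in a row with 1 base between them and raises transcription of genes for uptake, the carnitine shuttle into mitochondria, beta-oxidation in mitochondria and peroxisomes, and omega oxidation in the endoplasmic reticulum. Acyl-CoA thioesterases set fatty acids free again, and perilipins and CIDE proteins coat the droplets in which triglyceride is kept. PPARA is the main such receptor in hepatocytes, and its activators raise this gene set in mouse liver.

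Members that lie next to each other in the genome fell into 4 sets with no protein-coding gene between them: Acot2, Acot1, Acot4 and Acot3; Plin4 and Plin5; Cyp4a14 and Cyp4a10; and Hadha and Hadhb. RefSeq promoter windows of GRCm38.p6, from 250 bases before to 50 after a gene's start, were found for 30 members and not for Acaa2, Angptl4, Cpt1b, Cyp4a10, Cyp4a14, Decr1, Hsd17b4 and Vnn1. The full element AGGTCANAGGTCA, read on both strands, was in 0 of 30 members and in 0.0481% of 27025 genes. A looser form, AGGNCANAGGNCA, was in 1 of 30 members, Fabp1, and in 0.451% of genes. The hexamer AGGTCA alone, which can be part of either element, was in 9 of 30 members (30.0%: Acadm, Acadvl, Acot3, Acot4, Cd36, Cpt1a, Fabp1, Plin2 and Plin5) and in 18.1% of genes. Letters that match are no proof of a site, and a window without them says nothing of elements further away. 5 windows are printed, with hexamers and the looser element in capitals. Fabp1 holds the looser element at -67 to -55 from its start and a further hexamer next to its start, Cd36 has a hexamer at the far end, Hadha and Hadhb start head to head and share 228 of their 300 bases, and the neighbours Plin4 and Plin5 had the widest differences between Fah-/- p53-/- and Fah-/- livers with no NTBC among the 4 lipid droplet members.
Fabp1, chr6:71199629-71199928, plus strand: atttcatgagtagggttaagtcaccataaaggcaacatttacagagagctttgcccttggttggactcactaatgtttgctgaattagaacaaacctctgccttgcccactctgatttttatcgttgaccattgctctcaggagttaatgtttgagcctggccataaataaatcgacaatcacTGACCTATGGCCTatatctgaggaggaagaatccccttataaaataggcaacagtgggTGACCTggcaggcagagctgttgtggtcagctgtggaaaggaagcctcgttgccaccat
Cd36, chr5:17835847-17836146, minus strand: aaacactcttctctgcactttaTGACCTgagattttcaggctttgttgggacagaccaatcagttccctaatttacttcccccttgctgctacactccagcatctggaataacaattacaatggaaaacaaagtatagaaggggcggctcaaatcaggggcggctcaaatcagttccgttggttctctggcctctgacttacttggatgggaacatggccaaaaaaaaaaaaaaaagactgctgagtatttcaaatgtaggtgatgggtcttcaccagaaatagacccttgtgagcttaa
Hadhb, shared with Hadha, chr5:30155003-30155302, plus strand: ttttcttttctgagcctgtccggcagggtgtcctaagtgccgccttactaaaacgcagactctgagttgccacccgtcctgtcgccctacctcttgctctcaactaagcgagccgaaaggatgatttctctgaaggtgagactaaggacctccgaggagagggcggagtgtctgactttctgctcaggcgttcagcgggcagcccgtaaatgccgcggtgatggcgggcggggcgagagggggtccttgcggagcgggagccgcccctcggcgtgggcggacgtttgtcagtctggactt
Plin4, chr17:56109733-56110032, minus strand: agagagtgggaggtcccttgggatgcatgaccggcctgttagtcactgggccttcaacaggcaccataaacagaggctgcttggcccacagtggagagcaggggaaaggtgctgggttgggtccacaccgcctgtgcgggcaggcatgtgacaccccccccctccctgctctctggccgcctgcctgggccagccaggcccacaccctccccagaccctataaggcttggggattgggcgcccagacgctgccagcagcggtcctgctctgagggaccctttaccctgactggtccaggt
Plin5, chr17:56117499-56117798, minus strand: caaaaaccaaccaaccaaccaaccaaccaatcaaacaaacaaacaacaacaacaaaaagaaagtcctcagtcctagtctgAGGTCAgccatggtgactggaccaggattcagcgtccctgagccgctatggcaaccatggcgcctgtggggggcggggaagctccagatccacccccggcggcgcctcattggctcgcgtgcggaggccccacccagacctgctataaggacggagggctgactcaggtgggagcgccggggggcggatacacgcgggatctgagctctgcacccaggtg

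Withdrawal of NTBC moved the members in both directions. The genes that rose furthest were those for the droplet protein Cidec, the pyruvate dehydrogenase kinase Pdk4, the thioesterase Acot2, the mitochondrial carrier Ucp2 and the pantetheinase Vnn1, and these were the same 5 in Fah-/- p53-/- and Fah-/- livers. The genes that fell furthest were Acaa1b, Fabp1, Decr2, Decr1 and Acot3 in Fah-/- p53-/-, and Decr1, Acaa1b, Fabp1, Acsl1 and Ppara itself in Fah-/-. With no NTBC against full NTBC, 17 members were higher and 17 lower in Fah-/- p53-/- livers, where 69.7% of all features passed, 29.6% higher and 40.1% lower (limma, Benjamini-Hochberg adjusted p under 0.05). All 4 Fah-/- p53-/- arrays with no NTBC were female and all 4 on full NTBC male, and with a term for sex 11 members were higher and 13 lower. In Fah-/- livers 10 were higher and 19 lower, where 70.9% of all features passed, 29.3% higher and 41.6% lower. The median difference of the 38 was -0.15 in Fah-/- p53-/- and -0.32 in Fah-/-, beside -0.14 in Fah-/- p53-/- and -0.17 in Fah-/- over all features. With so many features moving, the share of members called (89.5% in Fah-/- p53-/- and 76.3% in Fah-/-) says little by itself, and direction and size carry the description. In both genotypes 9 members were higher (Acot1, Acot2, Cd36, Cidec, Ehhadh, Hadhb, Pdk4, Ucp2 and Vnn1), which is 52.9% of those higher in Fah-/- p53-/- and 90.0% of those in Fah-/-. A further 13 were lower in both, which is 76.5% of the Fah-/- p53-/- list and 68.4% of the Fah-/- list. Eci2, Hadha, Plin4 and Plin5 were called in opposite directions, higher in Fah-/- p53-/- and lower in Fah-/-. The rises of Eci2, Hadha and Plin5 in Fah-/- p53-/- did not pass with a term for sex, and quantile normalization turned the Eci2 fall in Fah-/- into a rise of 0.41.

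On reduced against full NTBC, 8 members were higher and 6 lower in Fah-/- p53-/- livers, where 20.3% of all features were higher and 19.6% lower. In Fah-/- livers 11 were higher and 7 lower, where 17.4% of all features were higher and 22.3% lower. That is 39.8% of all features in either genotype. In Fah-/- p53-/- the balance turned with the scaling, to 15 higher and 0 lower with normexp, 14 and 4 with quantile normalization, 13 and 3 in the deposited table, and 6 and 11 with scaling by the median. The median of the 38 was -0.08 in Fah-/- p53-/- and -0.01 in Fah-/-, with 0.02 in Fah-/- p53-/- and -0.03 in Fah-/- over all features. Cidec, Pdk4, Acot2, Vnn1, Ucp2, Ppargc1a and Hadhb were higher in both genotypes, and Acadvl, Fabp1, Plin5 and Ppara lower in both. Cidec and Ucp2 alone of these rises passed under each of the 4 other scalings in both genotypes. In Fah-/- p53-/- 0 of the 6 falls passed under all 4, while in Fah-/- those of Fabp1 and Plin5 did and those of Acadvl and Ppara did not. The fall of Plin5 in Fah-/- p53-/- became 0.068 with normexp background correction. It did not pass when Fah-/- p53-/- replicate 1, 3 or 4 on reduced or replicate 1, 2 or 3 on full NTBC was left out. No against reduced NTBC gave 16 higher and 14 lower in Fah-/- p53-/- livers (61.3% of all features passed, 23.2% higher and 38.1% lower) and 7 higher and 18 lower in Fah-/- livers (64.3% passed, 26.1% higher and 38.1% lower).

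Part of the falls depended on how the arrays were scaled. Quantile normalization shifted the median of all features from -0.17 to 0.01 for no against full NTBC in Fah-/-, and moved the 18 members with a mean level above 5 by a median of 0.78 upward, against 0.18 for the 20 dimmer ones. In Fah-/- p53-/- the median shifts were 0.84 and 0.20. All 17 rises in Fah-/- p53-/- and 9 of the 10 in Fah-/- passed under each of 4 alternatives: quantile normalization, the authors' deposited table, normexp background and scaling by the median. With a term for sex 11 of the 17 rises in Fah-/- p53-/- passed, without those of Angptl4, Eci2, Hadha, Plin2, Plin5 and Slc25a20. Of the falls, 8 of 17 in Fah-/- p53-/- passed in all 4 (Acaa1b, Acads, Acot3, Decr1, Decr2, Fabp1, Hadh and Ppara), and Acaa2, Acadm, Acadvl, Cyp4a14, Eci1 and Hsd17b4 turned positive in at least 1. In Fah-/-, 12 of 19 falls passed in all 4 (Acaa1b, Acads, Acadvl, Acot4, Acsl1, Decr1, Decr2, Eci1, Fabp1, Hadh, Plin5 and Ppara), and Cpt1a, Cpt2 and Eci2 turned positive in at least 1.

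**Figure D1:**
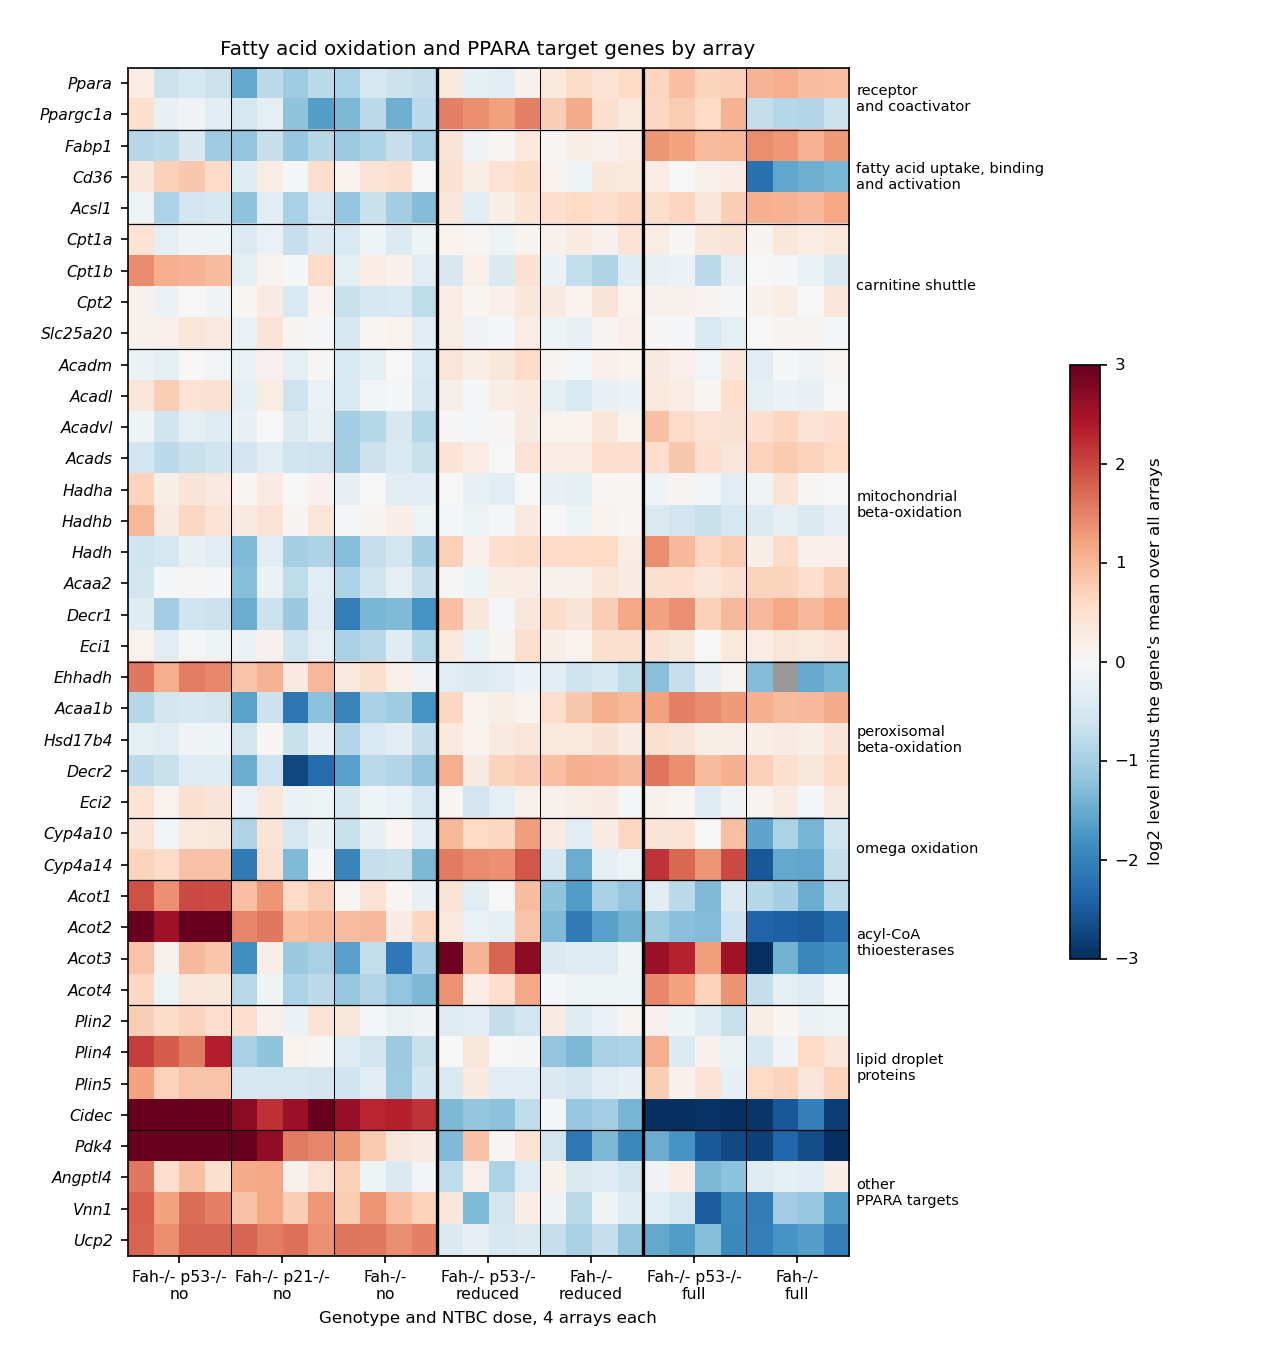
Log2 level of each of the 38 members on each of the 28 arrays, minus the mean of that gene over all arrays, in columns of 4 arrays per genotype and NTBC dose and in rows by role. Red is above and blue below the gene's own mean, the scale stops at 3 in either direction, and the grey cell is Ehhadh on 1 Fah-/- array on full NTBC. Cidec, Pdk4, Ucp2 and Vnn1 are red in all 3 genotypes with no NTBC, while Fabp1, Acsl1, Decr1 and Acaa1b are blue there.

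**Figure D2:**
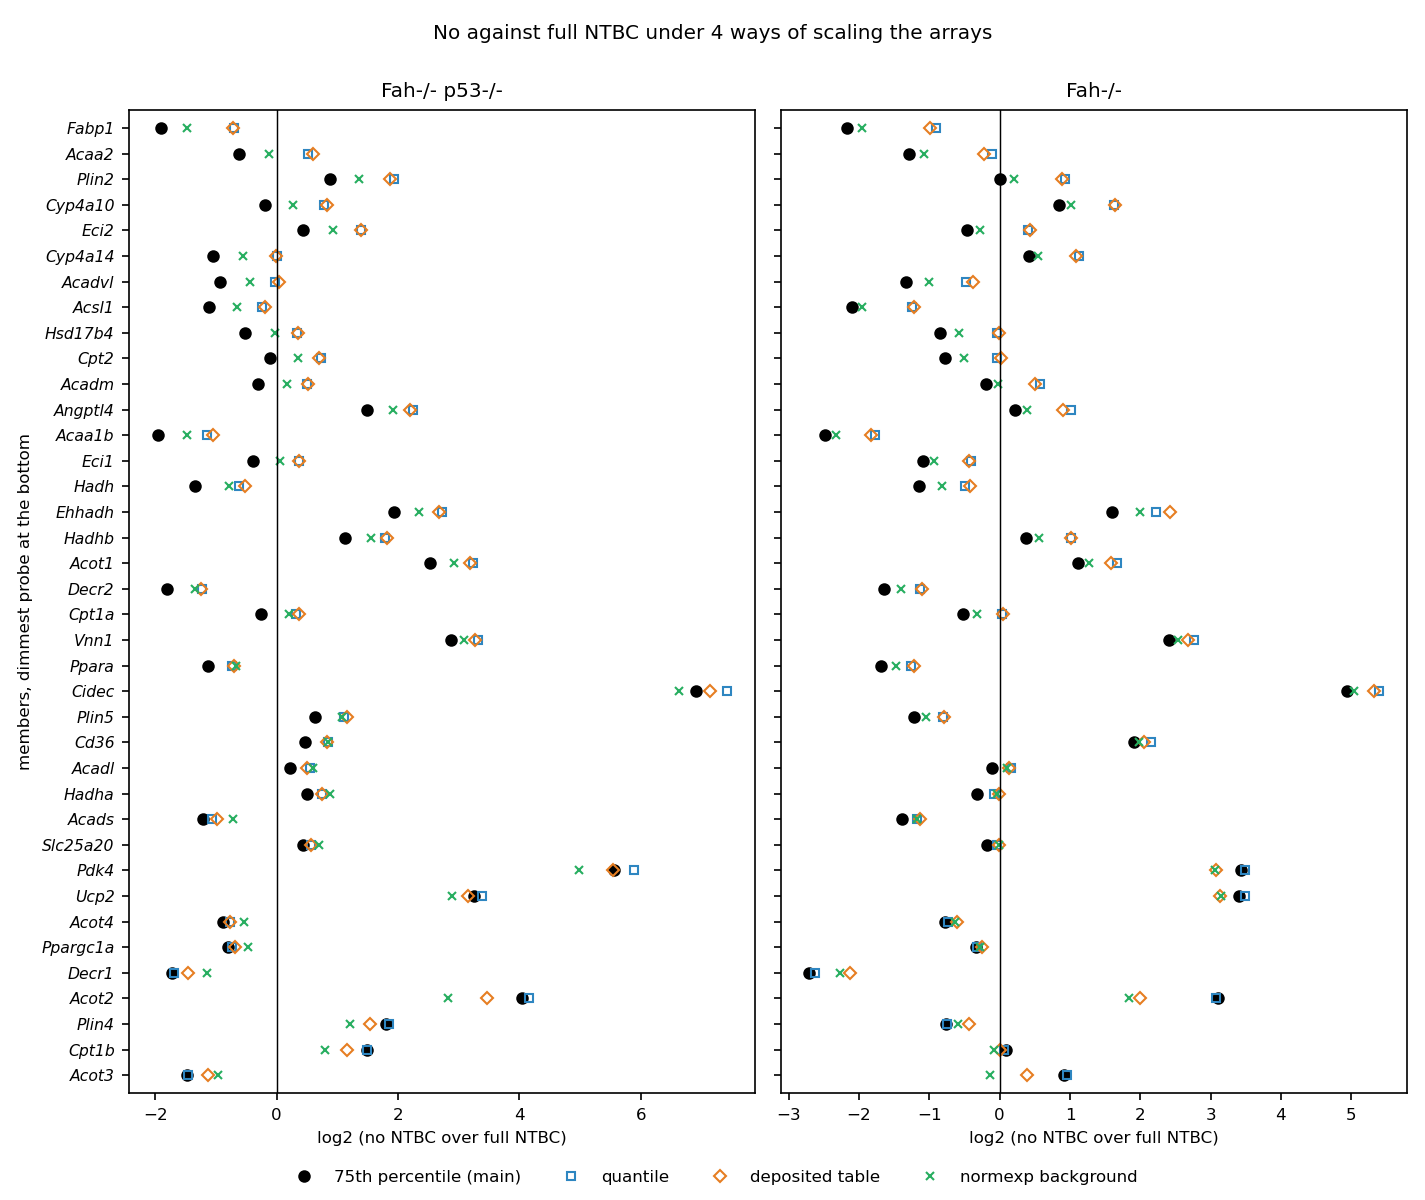
Log2 difference of no against full NTBC for each member, with the dimmest probe at the bottom, in Fah-/- p53-/- livers on the left and Fah-/- livers on the right, under the main scaling and 3 alternatives. Bright members shift to the right with quantile normalization and in the deposited table, so that Acaa2, Acadm, Eci1 and Hsd17b4 cross 0 in Fah-/- p53-/-.

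In the main scaling the members that passed between Fah-/- p53-/- and Fah-/- livers were higher in Fah-/- p53-/-, with Cidec on full NTBC the exception, and on reduced and full NTBC that balance depended on the scaling. With no NTBC, 22 members were higher and 0 lower in Fah-/- p53-/- than in Fah-/- livers, where 14.2% of all features passed, 7.65% higher and 6.6% lower, and the median of the 38 was 0.63 beside 0.01 over all features. On reduced NTBC 10 were higher and 0 lower (15.6% of all features passed, 9.84% higher and 5.8% lower; median 0.01 beside 0.04). Scaling by the median gave 7 higher and 6 lower there, the 6 being Acaa1b, Acsl1, Cpt1a, Eci2, Plin2 and Ppara (-0.79 to -0.40). On full NTBC 10 were higher and 1, Cidec, was lower (13.9% passed, 6.34% higher and 7.59% lower; median 0.06 beside 0.01), and normexp gave 6 higher and 3 lower (Acads, Acsl1 and Cidec). With no NTBC none was lower in any setting run. Acadl, Acot2, Acot3, Acot4, Cyp4a14 and Ppargc1a were higher at all 3 doses, which is 27.3% of the list with no NTBC and 6 of the 10 in each of the others. The share of all features higher at all 3 doses was not computed. Acot2, Acot3 and Cyp4a14 alone of these 6 passed under all 4 scaling alternatives at each dose. With no NTBC Acot2 alone of the 6 passed with a term for sex. The 3 comparisons use different arrays. At an unadjusted p under 0.05 the limma fit had 0 members lower with no, 4 on reduced and 2 on full NTBC. Under all 4 scaling alternatives 11 of the 22, 4 of the 10 and 6 of the 10 rises passed in that order of doses, and Cidec stayed lower on full NTBC.

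The 22 calls with no NTBC stand beside a difference in sex, since all 4 Fah-/- p53-/- arrays were female and all 4 Fah-/- arrays male. With a term for sex, which the Fah-/- p21-/- arrays of both sexes allow, 4 of the 22 were called: Acot2, Cpt1b, Plin4 and Plin5. The female and male Fah-/- p21-/- arrays lay on different slides and scan days, so this term cannot tell sex from slide or scan day. With the slide as a block among arrays with no NTBC 9 were called, within the 1 slide that held both genotypes 6, and with normexp background correction 11. Acot2, Plin4 and Plin5 were called under each of these and with any 1 array left out. The part of sex in the other calls was not tested further.

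**Figure D3:**
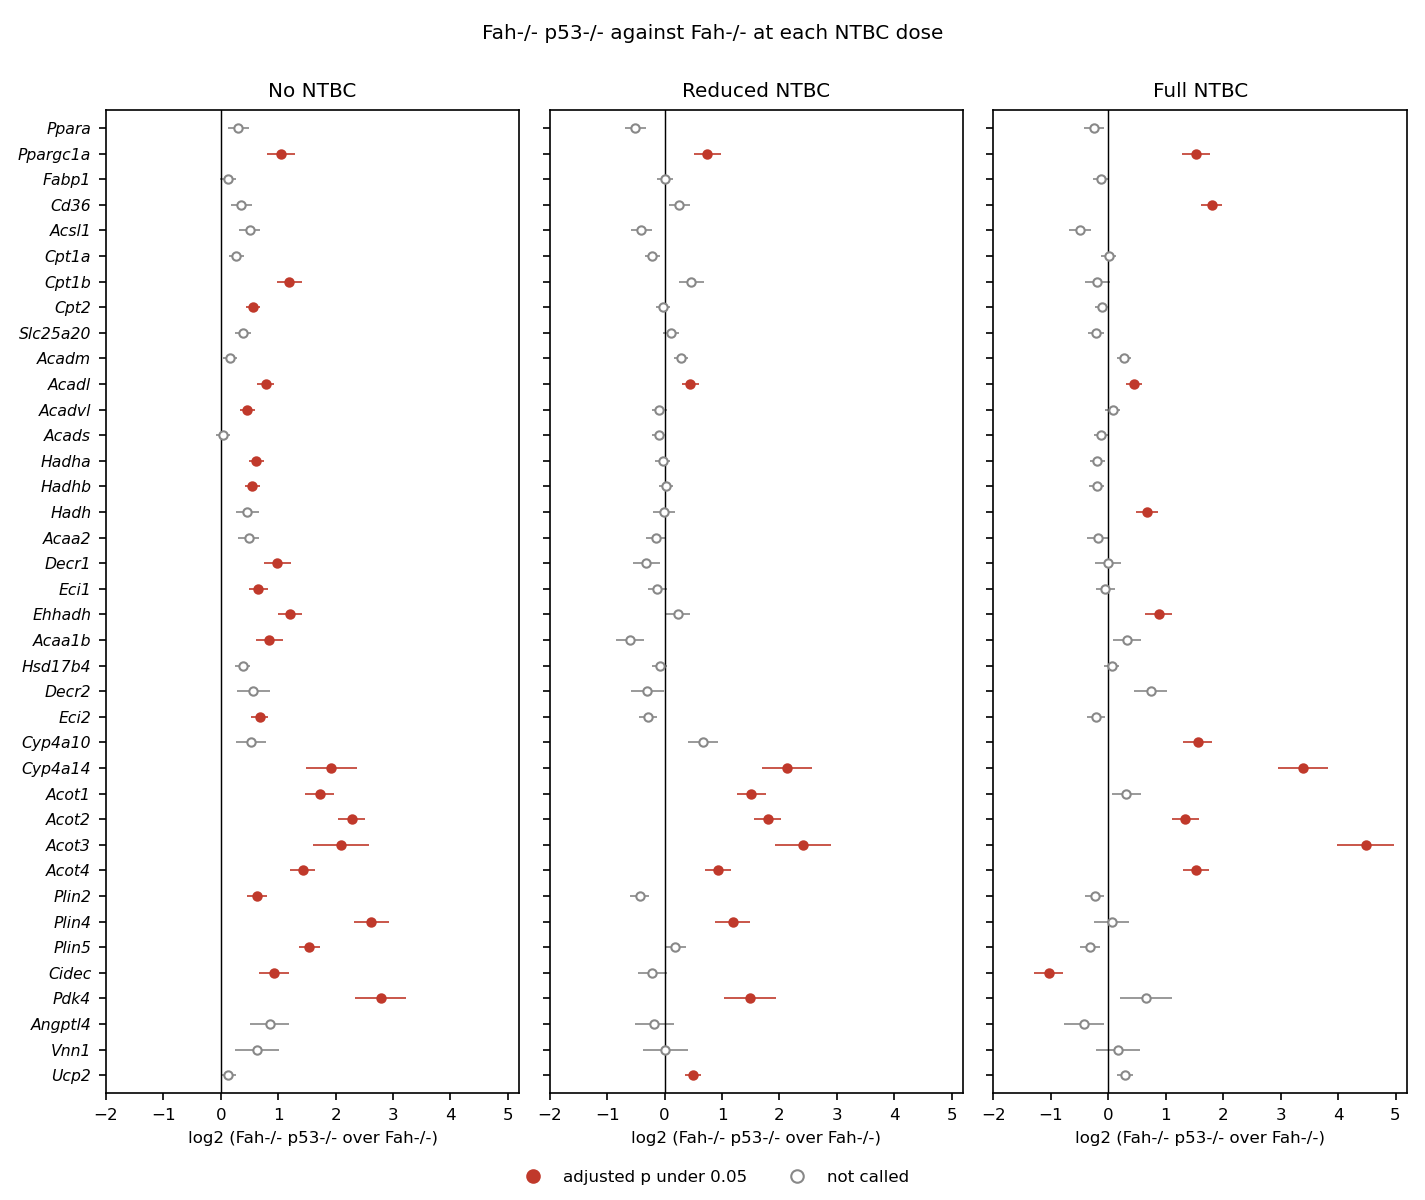
Log2 difference of Fah-/- p53-/- over Fah-/- for the 38 members, grouped by role from the receptor at the top, with no, reduced and full NTBC from left to right. Points are differences of 4 against 4 arrays (3 for Ehhadh in Fah-/- on full NTBC), bars are 1 standard error, and filled points passed. In this scaling no point lies left of 0 with no NTBC, while on reduced and full NTBC Acot3 and Cyp4a14 stand furthest right.

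The response to withdrawal differed between the genotypes for 14 members, 12 with a larger and 2 with a smaller value in Fah-/- p53-/- (interaction term, 9.11% of all features passed, 4.86% higher and 4.25% lower). The 12 were Acot1, Acsl1, Cidec, Cpt1b, Cpt2, Eci2, Hadha, Hadhb, Pdk4, Plin2, Plin4 and Plin5, and the 2 were Acot3 and Cd36. The largest positive values were Plin4 at 2.57 ± 0.43 (adjusted p = 0.000525), Pdk4 at 2.13 ± 0.63 (adjusted p = 0.035), Cidec at 1.97 ± 0.36 (adjusted p = 0.00125) and Plin5 at 1.86 ± 0.25 (adjusted p = 5.76e-05). Plin4, Cidec and Plin5 passed under every alternative and with any 1 array left out. Acot3, at -2.39 ± 0.70 (adjusted p = 0.0326), rests on a dim group: without Fah-/- replicate 1 on full NTBC, which was not well above background, it was -1.81 and did not pass. With normexp background correction Cidec, Plin4 and Plin5 alone passed, and with a term for sex 6 of the members passed. For reduced NTBC the interaction passed for 2 members, Acot1 with a larger and Cd36 with a smaller value in Fah-/- p53-/- (10.4% of all features passed, 6.74% higher and 3.64% lower). Neither passed with normexp.

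In Fah-/- p21-/- against Fah-/- livers with no NTBC 5 members were higher and 0 lower by limma (1 lower at an unadjusted p under 0.05; 7.53% of all features passed, 3.94% higher and 3.59% lower). They were Pdk4 at 1.62 ± 0.45, Acot1 at 0.81 ± 0.25, Acadvl at 0.60 ± 0.13, Cpt2 at 0.58 ± 0.12 and Eci1 at 0.53 ± 0.16 (log2 difference ± standard error, limma). None of the 5 passed when the 2 male Fah-/- p21-/- arrays alone were set against the male Fah-/- arrays, where 1 other member, Decr2, was lower (-1.4, adjusted p = 0.0028), and 0 to 3 passed with normexp background, slide as a block or only these groups in the fit. Fah-/- p53-/- against Fah-/- p21-/- livers gave 14 higher and 0 lower by limma, and 0 lower at an unadjusted p under 0.05 (11% passed, 5.04% higher and 5.96% lower). Against the 2 female Fah-/- p21-/- arrays alone 5 passed: Plin4, Acot2, Plin5, Cpt1b and Ppara. This comparison and the one of Fah-/- p53-/- against Fah-/- share the Fah-/- p53-/- arrays. The male and female Fah-/- p21-/- arrays also differed in slide and scan day.

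The receptor itself fell with the dose. Ppara levels in Fah-/- livers were 2.74, 3.18, 3.05 and 2.97 with no NTBC, 4.01, 4.25, 4.11 and 4.29 on reduced NTBC and 4.71, 4.77, 4.62 and 4.59 on full NTBC, and the 3 doses did not overlap. In Fah-/- p53-/- livers they were 3.91, 3.06, 3.16 and 3.04, then 3.98, 3.43, 3.38 and 3.83, then 4.34, 4.61, 4.35 and 4.4 in the same order of doses, where no and reduced NTBC overlapped through replicate 1 with no NTBC. No against full NTBC gave -1.13 ± 0.18 (adjusted p = 5.63e-06) in Fah-/- p53-/- and -1.69 ± 0.18 (adjusted p = 1.4e-08) in Fah-/- (limma). Between Fah-/- p53-/- and Fah-/- the difference did not pass at any dose (0.31 ± 0.18 with no NTBC, 95% interval -0.06 to 0.68). Ppargc1a, which docks to nuclear receptors and drives mitochondrial genes, ran otherwise: in Fah-/- it was highest on reduced NTBC (1.4, 1.8, 1.18 and 1.0), above no NTBC (-0.67, -0.12, -0.80 and -0.12) and full NTBC (-0.05, -0.18, -0.19 and 0.03). In Fah-/- p53-/- it was also highest on reduced NTBC (1.91 to 2.19, with 0.34 to 1.15 on none and 1.27 to 1.73 on full). Reduced against full NTBC gave 0.66 ± 0.24 (adjusted p = 0.0311) in Fah-/- p53-/- and 1.44 ± 0.24 (adjusted p = 4.86e-05) in Fah-/-. It was higher in Fah-/- p53-/- than Fah-/- on full NTBC by 1.53 ± 0.24 (adjusted p = 8.89e-05), with no overlap. A second, dimmer Ppargc1a probe gave 0.81 in place of 1.44 for reduced against full NTBC in Fah-/-.

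Uptake and binding genes parted ways. Fabp1, the main fatty acid carrier of hepatocyte cytosol and the member with the looser element in its window, read 7.51, 7.67, 7.9 and 7.62 with no NTBC, 8.63, 8.8, 8.73 and 8.82 on reduced and 9.99, 9.88, 9.63 and 9.87 on full NTBC in Fah-/- livers. Fah-/- p53-/- livers gave 7.74, 7.81, 8.12 and 7.53, then 8.99, 8.49, 8.65 and 8.91, then 9.92, 9.8, 9.54 and 9.58. The 3 doses were apart in each genotype, and the genotypes overlapped at each dose. No against full NTBC was -1.91 ± 0.14 (adjusted p = 2.57e-11) in Fah-/- p53-/- and -2.17 ± 0.14 (adjusted p = 3.69e-12) in Fah-/-, and both stayed negative and passed under every scaling.

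Cd36, a membrane receptor for long-chain fatty acids that is also found on macrophages and adipocytes, was low in 1 group alone. It read 1.1, 1.79, 1.88 and 1.98 in Fah-/- on full NTBC, against 3.46, 3.78, 3.82 and 3.33 with no and 3.44, 3.21, 3.69 and 3.65 on reduced NTBC. In Fah-/- p53-/- it was 3.56, 3.36, 3.47 and 3.55 on full NTBC, with 3.71 to 4.14 with no and 3.54 to 3.9 on reduced NTBC. The excess of Fah-/- p53-/- over Fah-/- on full NTBC was 1.8 ± 0.18 (adjusted p = 2.44e-07), and at the lower doses the difference did not pass (0.25 ± 0.18 on reduced, 0.36 ± 0.18 with none). The interaction was -1.54 ± 0.26 (adjusted p = 0.000575) for reduced and -1.44 ± 0.26 (adjusted p = 0.000959) for no NTBC. Neither passed with normexp background correction. On full NTBC each genotype filled 1 slide. Acsl1, which joins fatty acids to coenzyme A, spanned 5.29 to 5.93 with no NTBC in Fah-/-, below 7.08 to 7.22 on reduced and 7.57 to 7.74 on full NTBC. Its difference of no against full NTBC was -1.11 ± 0.18 in Fah-/- p53-/- and -2.11 ± 0.18 in Fah-/-, an interaction of 1.0 ± 0.26 (adjusted p = 0.017).

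Of the 4 carnitine shuttle members 2 were higher with no against full NTBC in Fah-/- p53-/-, and 2 were lower in Fah-/-. Over all features 29.6% were higher in Fah-/- p53-/- and 41.6% lower in Fah-/-. Cpt1a, the rate-setting outer-membrane transferase of liver, fell with no against full NTBC in Fah-/- (-0.53 ± 0.13) and did not pass in Fah-/- p53-/- (-0.26 ± 0.13); quantile normalization gave 0.028 in Fah-/-, and the deposited table put Fah-/- p53-/- at 0.36. Cpt2, the inner-membrane transferase, was at 6.44, 6.14, 6.32 and 6.21 in Fah-/- p53-/-, 6.36, 6.55, 5.86 and 6.39 in Fah-/- p21-/- and 5.65, 5.78, 5.87 and 5.55 in Fah-/- livers with no NTBC, against 6.29 to 6.69 in Fah-/- on full NTBC, and fell without NTBC in Fah-/- (-0.78 ± 0.12). The arrays of Fah-/- p53-/- did not overlap those of Fah-/- there (0.57 ± 0.12, adjusted p = 0.00349), though it did not pass with a term for sex. Slc25a20, the carnitine carrier of the inner membrane, differed by 0.43 ± 0.14 for no against full NTBC in Fah-/- p53-/- and by -0.18 ± 0.14 in Fah-/-. Cpt1b, the muscle form of the outer transferase, was dim, at 0.38, 0.04, -0.01 and -0.11 in Fah-/- p53-/- and -1.35, -0.83, -0.93 and -1.38 in Fah-/- livers with no NTBC. This made a difference of 1.2 ± 0.22 (adjusted p = 0.000804) with no overlap. No against full NTBC gave 1.48 ± 0.22 in Fah-/- p53-/- and 0.09 ± 0.22 in Fah-/-. Its second probe disagreed on withdrawal in Fah-/-, at 2.42 where the first gave 0.09. Of 8 muscle markers 4 were measured, and their summed linear level was 0.21 to 0.99 in Fah-/- p53-/- and 0.19 to 0.40 in Fah-/- livers with no NTBC; their part in Cpt1b was not tested.

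Of the 10 members of mitochondrial beta-oxidation 2 were higher and 7 lower with no against full NTBC in Fah-/- p53-/-, and 1 was higher and 7 lower in Fah-/-. Over all features 69.7% were called in Fah-/- p53-/- and 70.9% in Fah-/-. Decr1, the dienoyl-CoA reductase for unsaturated chains, read -0.36, -1.06, -0.60 and -0.64 in Fah-/- p53-/- with no NTBC, against 1.2, 1.35, 0.69 and 0.95 on full NTBC. In Fah-/- it was -2.09, -1.38, -1.34 and -1.81 with no NTBC, against 0.97, 1.15, 0.95 and 1.15 on full NTBC. The doses were far apart in both genotypes, with differences of -1.72 ± 0.23 (adjusted p = 7.15e-07) in Fah-/- p53-/- and -2.71 ± 0.23 (adjusted p = 5.47e-10) in Fah-/-. Acads, the short-chain acyl-CoA dehydrogenase, was lower in both (-1.21 ± 0.12 in Fah-/- p53-/- and -1.39 ± 0.12 in Fah-/-), with Fah-/- spanning 1.25 to 1.79 with no and 2.86 to 3.02 on full NTBC. Hadh, the short-chain hydroxyacyl-CoA dehydrogenase, fell by 1.35 ± 0.20 in Fah-/- p53-/- and 1.14 ± 0.20 in Fah-/-. These 3 were lower under every scaling.

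The very-long-chain dehydrogenase Acadvl, the thiolase Acaa2 and the isomerase Eci1 were lower with no against full NTBC in the main scaling, but each turned positive for Fah-/- p53-/- in the deposited table. Acadvl was -0.94 ± 0.13 in Fah-/- p53-/- and -1.33 ± 0.13 in Fah-/-, Acaa2 -0.61 ± 0.18 in Fah-/- p53-/- and -1.28 ± 0.18 in Fah-/-, and Eci1 -0.39 ± 0.16 in Fah-/- p53-/- and -1.09 ± 0.16 in Fah-/-. The medium-chain dehydrogenase Acadm differed by -0.30 ± 0.12 in Fah-/- p53-/- and -0.19 ± 0.12 in Fah-/-, and quantile normalization gave 0.49 in Fah-/- p53-/- and 0.57 in Fah-/-. Its direction thus rests on the scaling. Acadl, the long-chain dehydrogenase, did not pass for no against full NTBC in either genotype (0.23 ± 0.15 in Fah-/- p53-/- and -0.11 ± 0.15 in Fah-/-) but was higher in Fah-/- p53-/- than in Fah-/- at each dose, by 0.78 ± 0.15 with no, 0.45 ± 0.15 on reduced and 0.45 ± 0.15 on full NTBC. Its arrays did not overlap between the genotypes at any dose: 3.47 to 3.85 against 2.59 to 3.02 with no NTBC, 3.06 to 3.38 against 2.64 to 2.92 on reduced, and 3.16 to 3.61 against 2.83 to 3.07 on full NTBC. None of these 3 calls for Acadl passed with normexp, those on reduced and full NTBC did not pass with scaling by the median or without 1 of 6 arrays each, and that with no NTBC did not pass with a term for sex (0.39).

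Hadha and Hadhb encode the 2 subunits of the trifunctional protein and share most of the promoter window printed above. Hadhb read 6.35, 5.62, 5.98 and 5.8 in Fah-/- p53-/- with no NTBC, against 4.92, 4.8, 4.69 and 4.84 on full NTBC, and 5.34, 5.45, 5.56 and 5.2 in Fah-/- with no NTBC, against 4.96, 5.07, 4.93 and 5.11 on full NTBC. It was thus higher without NTBC in each, by 1.13 ± 0.13 (adjusted p = 3.25e-08) in Fah-/- p53-/- and 0.37 ± 0.13 (adjusted p = 0.0115) in Fah-/-. Hadha was higher in Fah-/- p53-/- (0.50 ± 0.13) and slightly lower in Fah-/- (-0.32 ± 0.13), where its arrays overlapped. The interaction was similar for the pair, 0.82 ± 0.18 (adjusted p = 0.00672) for Hadha and 0.76 ± 0.18 (adjusted p = 0.00871) for Hadhb.

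In peroxisomes the members split. Ehhadh, the bifunctional enzyme that PPARA activators raise strongly in mouse liver, read 7.14, 6.66, 7.1 and 7.01 in Fah-/- p53-/-, 6.42, 6.62, 5.87 and 6.56 in Fah-/- p21-/- and 5.87, 6.04, 5.71 and 5.46 in Fah-/- livers with no NTBC. On full NTBC it was 4.31, 4.87, 5.36 and 5.67 in Fah-/- p53-/- and 4.27, 4.07 and 4.2 in Fah-/-, where 1 outlier spot was dropped (n = 3). It rose without NTBC by 1.93 ± 0.21 (adjusted p = 3.39e-08) in Fah-/- p53-/- and 1.59 ± 0.23 (adjusted p = 1.87e-06) in Fah-/-, with no overlap of the doses. Hsd17b4, the bifunctional enzyme for branched chains and bile acid precursors, differed the other way (-0.52 ± 0.13 in Fah-/- p53-/- and -0.85 ± 0.13 in Fah-/-), although quantile normalization gave 0.33 in Fah-/- p53-/-.

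Acaa1b, a peroxisomal thiolase, fell. It was 5.16, 5.46, 5.54 and 5.46 in Fah-/- p53-/- with no NTBC, against 7.21, 7.53, 7.43 and 7.29 on full NTBC. In Fah-/- it was 4.02, 5.03, 4.95 and 4.23 with no NTBC, against 7.09, 6.96, 6.99 and 7.13 on full NTBC. The differences were -1.96 ± 0.24 (adjusted p = 1.33e-07) in Fah-/- p53-/- and -2.48 ± 0.24 (adjusted p = 3.17e-09) in Fah-/-; reduced against full NTBC passed in Fah-/- p53-/- (-1.1 ± 0.24) and not in Fah-/- (-0.17 ± 0.24); the interaction at that dose did not pass (-0.93 ± 0.34). Decr2, the peroxisomal dienoyl-CoA reductase, differed without NTBC by -1.8 ± 0.29 (adjusted p = 7.34e-06) in Fah-/- p53-/- and -1.64 ± 0.29 (adjusted p = 2.57e-05) in Fah-/-. Its Fah-/- p21-/- arrays with no NTBC read 3.17, 4.02, 1.91 and 2.34, where the 2 male arrays, replicates 3 and 4, lay below all others, with 3.02 to 3.85 in Fah-/-. These male arrays also had another slide and scan day than the female ones. Eci2, a peroxisomal isomerase, was 7.44, 7.11, 7.5 and 7.4 in Fah-/- p53-/- and 6.53, 6.89, 6.8 and 6.52 in Fah-/- with no NTBC, apart by 0.68 ± 0.15 (adjusted p = 0.00483). That call did not pass with a term for sex.

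The omega hydroxylases Cyp4a14 and Cyp4a10 are textbook PPARA targets, and Cyp4a14 was higher in Fah-/- p53-/- than in Fah-/- at each dose. Cyp4a14 on full NTBC was 9.0, 8.55, 8.15 and 8.8 in Fah-/- p53-/- and 4.27, 5.29, 5.26 and 6.11 in Fah-/-, a difference of 3.39 ± 0.44 (adjusted p = 8.14e-06). On reduced NTBC it was 8.37, 8.23, 8.2 and 8.69 in Fah-/- p53-/- and 6.35, 5.34, 6.56 and 6.68 in Fah-/-, a difference of 2.14 ± 0.44 (adjusted p = 0.00185). With no NTBC it was 7.5, 7.4, 7.71 and 7.71 in Fah-/- p53-/-, 4.7, 7.28, 5.49 and 6.79 in Fah-/- p21-/- and 4.84, 6.14, 6.15 and 5.48 in Fah-/-, and Fah-/- p53-/- exceeded Fah-/- by 1.93 ± 0.44 (adjusted p = 0.00503). The genotypes did not overlap at any dose, and the Fah-/- p21-/- arrays spread from below the Fah-/- range to just under Fah-/- p53-/-. With no NTBC the Fah-/- p53-/- arrays were female and the Fah-/- arrays male. The Cyp4a14 call at that dose did not pass with a term for sex. Without NTBC Fah-/- p53-/- was lower than on full NTBC (-1.05 ± 0.44, 0.0031 with quantile normalization), and in Fah-/- the dose did not pass (0.42 ± 0.44). Cyp4a10 was higher in Fah-/- p53-/- than in Fah-/- on full NTBC by 1.55 ± 0.26 and did not pass on reduced (0.67 ± 0.26) or with no NTBC (0.53 ± 0.26). In Fah-/- it was higher than on full NTBC with both reduced (1.33 ± 0.26) and no NTBC (0.84 ± 0.26). Its 3 probes gave -0.19, 0.46 and 1.15 for no against full NTBC in Fah-/- p53-/-, so its direction there depends on the probe. Probes for close relatives of this family, and of the Acot genes, can share target sequence, so that their values are less certain as measures of 1 gene.

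All 4 neighbouring thioesterases were higher in Fah-/- p53-/- than in Fah-/- livers with no NTBC and on reduced NTBC, and 3 of 4, without Acot1, on full NTBC. Over all features 7.65% were higher with no NTBC, 9.84% on reduced and 6.34% on full NTBC. With no NTBC, where the genotypes differed in sex, Acot2 alone of the 4 passed with a term for sex. Acot2, the mitochondrial form, read 2.32, 1.88, 2.55 and 2.58 in Fah-/- p53-/-, 0.81, 0.93, 0.25 and 0.35 in Fah-/- p21-/- and 0.27, 0.32, -0.39 and -0.0001 in Fah-/- with no NTBC. On reduced NTBC it was -0.32, -0.84, -0.94 and 0.20 in Fah-/- p53-/- and -1.97, -2.78, -2.27 and -2.06 in Fah-/-, and on full NTBC -1.71, -1.91, -1.95 and -1.28 in Fah-/- p53-/- and -3.04, -3.11, -3.15 and -2.9 in Fah-/-. Every Fah-/- p53-/- array lay above every Fah-/- array of the same dose. The differences were 2.28 ± 0.24 (adjusted p = 1.75e-06) with no, 1.8 ± 0.24 (adjusted p = 2.49e-05) on reduced and 1.34 ± 0.24 (adjusted p = 0.000404) on full NTBC, and no interaction with dose passed (0.94 ± 0.34 for no NTBC, 95% interval 0.25 to 1.64). Acot2 also rose with withdrawal, by 4.04 ± 0.24 (adjusted p = 8.44e-13) in Fah-/- p53-/- and 3.1 ± 0.24 (adjusted p = 7.2e-11) in Fah-/-. With no NTBC the excess over Fah-/- was 1.71 with a term for sex (adjusted p = 0.0315) and 2.09 with slide as a block.

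Acot1, the cytosolic form, was 6.94, 6.41, 7.02 and 6.98 in Fah-/- p53-/- and 5.08, 5.46, 5.09 and 4.81 in Fah-/- with no NTBC, apart by 1.73 ± 0.25 (adjusted p = 9.3e-05). On full NTBC the genotypes overlapped (3.7 to 4.72 in Fah-/- p53-/- and 3.54 to 4.24 in Fah-/-). The interaction passed at both lower doses (1.2 ± 0.36, adjusted p = 0.0329 for reduced, 1.42 ± 0.36 (adjusted p = 0.0133) for no NTBC). At neither dose did it pass with normexp. Acot3 and Acot4, peroxisomal forms, were highest in Fah-/- p53-/- on reduced and full NTBC. Acot3 read 1.1, 0.81, -0.23 and 1.01 in Fah-/- p53-/- and -5.54, -2.91, -3.46 and -3.32 in Fah-/- on full NTBC, where 3 of 4 Fah-/- arrays were well above background. That difference, 4.48 ± 0.49 (adjusted p = 8.73e-07), was the widest of any member between these genotypes, and its dim side limits its precision. Without NTBC it shrank to 2.09 ± 0.49 (-0.64, -1.36, -0.53 and -0.66 in Fah-/- p53-/-, -3.14, -2.24, -3.63 and -2.54 in Fah-/-), an interaction of -2.39 ± 0.70 (adjusted p = 0.0326). Acot4 was higher in Fah-/- p53-/- by 1.43 ± 0.22 with no, 0.93 ± 0.22 on reduced and 1.53 ± 0.22 on full NTBC, and fell with withdrawal in each genotype (-0.87 ± 0.22 in Fah-/- p53-/- and -0.77 ± 0.22 in Fah-/-).

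Among the lipid droplet genes, Plin4 and Plin5 were called in opposite directions on withdrawal in the genotypes in the main fit, with the limits given below. Plin4, a droplet coat protein, read 1.32, 1.06, 0.79 and 1.58 in Fah-/- p53-/-, -1.74, -1.98, -0.66 and -0.73 in Fah-/- p21-/- and -1.14, -1.32, -1.85 and -1.42 in Fah-/- with no NTBC. On reduced NTBC it was -0.75, -0.42, -0.78 and -0.80 in Fah-/- p53-/- and -1.96, -2.12, -1.73 and -1.69 in Fah-/-, and on full NTBC 0.31, -1.18, -0.63 and -0.97 in Fah-/- p53-/- and -1.25, -0.86, -0.17 and -0.41 in Fah-/-. The Fah-/- p53-/- arrays without NTBC lay above all 24 others, the genotypes were apart on reduced NTBC (1.19 ± 0.30, adjusted p = 0.00956), and on full NTBC they overlapped. No against full NTBC was 1.81 ± 0.30 (adjusted p = 1.34e-05) in Fah-/- p53-/- and -0.76 ± 0.30 (adjusted p = 0.0291) in Fah-/-, where the fall did not pass in the deposited table (-0.44) or without Fah-/- replicate 3 or 4 on full or replicate 3 with no NTBC (-0.67 to -0.60). With no NTBC Fah-/- p53-/- exceeded Fah-/- by 2.62 ± 0.30 (adjusted p = 8.65e-06), which was 3.79 with a term for sex and 2.94 with slide as a block.

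Its neighbour Plin5, which ties droplets to mitochondria in oxidative tissues, was 4.85, 4.33, 4.5 and 4.51 in Fah-/- p53-/-, 3.15, 3.13, 3.16 and 3.09 in Fah-/- p21-/- and 3.06, 3.33, 2.58 and 3.04 in Fah-/- with no NTBC. On reduced NTBC the genotypes overlapped at 3.2 to 3.93 in Fah-/- p53-/- and 3.11 to 3.4 in Fah-/-, and on full NTBC at 3.4 to 4.38 in Fah-/- p53-/- and 4.01 to 4.33 in Fah-/-. The Fah-/- p21-/- arrays lay close together and inside the range of Fah-/-. Withdrawal gave 0.64 ± 0.18 (adjusted p = 0.00305) in Fah-/- p53-/- and -1.22 ± 0.18 (adjusted p = 2.19e-06) in Fah-/-. In Fah-/- p53-/- the arrays with no and full NTBC overlapped, and the rise did not pass with a term for sex. Fah-/- p53-/- exceeded Fah-/- by 1.54 ± 0.18 (adjusted p = 9.37e-06) with no NTBC, 1.53 with a term for sex and 1.46 with slide as a block, and exceeded Fah-/- p21-/- by 1.41 ± 0.18 (adjusted p = 2.64e-05). Set against the 2 female Fah-/- p21-/- arrays alone, Plin4 was higher by 3.04 (adjusted p = 4e-06) and Plin5 by 1.41 (adjusted p = 0.000544).

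Cidec, which enlarges droplets by lipid transfer and is most abundant in fat tissue, showed the widest change of all members. It read 7.19, 6.68, 7.0 and 7.0 in Fah-/- p53-/-, 6.39, 5.88, 6.24 and 6.68 in Fah-/- p21-/- and 6.3, 5.97, 6.03 and 5.87 in Fah-/- with no NTBC. On reduced NTBC it was 2.35, 2.52, 2.46 and 2.93 in Fah-/- p53-/- and 3.62, 2.56, 2.67 and 2.28 in Fah-/-, and on full NTBC -0.14, -0.29, 0.75 and -0.10 in Fah-/- p53-/- and 0.77, 1.14, 1.63 and 0.85 in Fah-/-. The doses were apart in both genotypes, and on full NTBC Fah-/- p53-/- lay below Fah-/- (-1.04 ± 0.25, adjusted p = 0.00751). No against full NTBC was 6.91 ± 0.25 (adjusted p = 1.63e-15) in Fah-/- p53-/-, which is 120-fold, and 4.95 ± 0.25 (adjusted p = 1.23e-13) in Fah-/-, which is 30.8-fold. Plin2, the general droplet coat of hepatocytes, was 8.11, 7.94, 8.06 and 7.91 in Fah-/- p53-/- with no NTBC, against 7.52, 7.25, 7.02 and 6.72 on full NTBC (0.88 ± 0.17, adjusted p = 7.22e-05), and in Fah-/- did not pass (0.01 ± 0.17).

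Adipocyte markers also differed with dose. Of 8 such markers 5 were measured, and their summed linear level, as multiples of the 75th percentile, was 30.8 to 82.6 in Fah-/- p53-/-, 5.46 to 61.6 in Fah-/- p21-/- and 30.4 to 70.1 in Fah-/- livers with no NTBC. It was 1.99 to 2.66 in Fah-/- p53-/- and 1.94 to 3.33 in Fah-/- on reduced NTBC, and 2.04 to 5.72 in Fah-/- p53-/- and 5.05 to 8.71 in Fah-/- on full NTBC. Of the 5, 3 were higher with no against full NTBC in each genotype, while 1 was lower in Fah-/- p53-/- and 2 in Fah-/-. For all features the shares were 29.6% higher and 40.1% lower in Fah-/- p53-/-, and 29.3% and 41.6% in Fah-/-. Plin1 and Cidea are among the 5 and are also counted below as droplet genes, so the sum is not independent of those. A linear sum weighs the brightest genes most. With no NTBC 3 of the 5 were well above background on all arrays of each genotype, and 1 on no array of Fah-/- p53-/- and 1 on no array of Fah-/-. The median sum with no NTBC was 81.3 in Fah-/- p53-/- and 40.3 in Fah-/-, and the ranges overlapped. Their part in these results was not tested. Macrophage markers, 8 of 8 measured, were higher without NTBC for 7 in Fah-/- p53-/- and 8 in Fah-/-, and the summed hepatocyte markers were 887 to 945 with no and 2814 to 3403 on full NTBC in Fah-/- p53-/-, and 883 to 1045 with no and 2626 to 3242 on full NTBC in Fah-/-. Their part in the falls of the oxidation genes was not tested either.

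Of the 4 remaining PPARA targets all were higher with no against full NTBC in Fah-/- p53-/-, and 3 in Fah-/-, without Angptl4. Over all features 29.6% were higher in Fah-/- p53-/- and 29.3% in Fah-/-. Pdk4, which turns off glucose oxidation in fasting, read 5.38, 4.82, 5.24 and 4.96 in Fah-/- p53-/-, 5.09, 4.32, 3.22 and 3.11 in Fah-/- p21-/- and 2.93, 2.44, 1.98 and 1.91 in Fah-/- with no NTBC. On full NTBC it was 0.16, -0.11, -0.87 and -1.04 in Fah-/- p53-/- and -1.14, -0.73, -1.0 and -1.61 in Fah-/-. The order with no NTBC was Fah-/- p53-/-, Fah-/- p21-/- and Fah-/-, with Fah-/- p53-/- and Fah-/- p21-/- overlapping and both above Fah-/-. The 2 female Fah-/- p21-/- arrays, replicates 1 and 2, were above the male ones. They also lay on another slide and scan day, so sex cannot be told apart from these here. Withdrawal gave 5.56 ± 0.45 (adjusted p = 1.38e-10) in Fah-/- p53-/- and 3.44 ± 0.45 (adjusted p = 3.41e-07) in Fah-/-. With no NTBC Fah-/- p53-/- exceeded Fah-/- by 2.78 ± 0.45 (adjusted p = 0.000264), a call that was lost with a term for sex.

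Ucp2, an inner-membrane carrier, was nearly the same in all 3 genotypes with no NTBC, at 3.01, 2.66, 3.02 and 3.03 in Fah-/- p53-/-, 3.03, 2.8, 2.93 and 2.64 in Fah-/- p21-/- and 2.87, 2.86, 2.67 and 2.78 in Fah-/-. On reduced NTBC it was 0.84, 1.03, 0.80 and 0.85 in Fah-/- p53-/- and 0.58, 0.29, 0.59 and 0.09 in Fah-/-, and on full NTBC -0.26, -0.40, -0.0002 and -0.66 in Fah-/- p53-/- and -0.78, -0.51, -0.38 and -0.79 in Fah-/-. It rose at each lowering of the dose with no overlap. No against full NTBC was 3.26 ± 0.14 (adjusted p = 7.68e-15) in Fah-/- p53-/- and 3.41 ± 0.14 (adjusted p = 4.78e-15) in Fah-/-, and the difference between Fah-/- p53-/- and Fah-/- with no NTBC was 0.13 ± 0.14 (95% interval -0.15 to 0.42). In rodents Ucp2 is known to be low in hepatocytes and high in Kupffer cells, the macrophages of the liver, whose markers also rose; their part was not tested.

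Vnn1, a pantetheinase of the hepatocyte surface, was 4.95 to 5.55 in Fah-/- p53-/- with no NTBC, against 1.26 to 3.42 on full NTBC, and 4.44 to 5.06 in Fah-/- with no NTBC, against 1.64 to 2.71 on full NTBC. The differences were 2.87 ± 0.38 (adjusted p = 5.65e-07) in Fah-/- p53-/- and 2.41 ± 0.38 (adjusted p = 6.65e-06) in Fah-/-. Angptl4, a secreted inhibitor of lipoprotein lipase, rose in Fah-/- p53-/- (1.49 ± 0.34, adjusted p = 0.000458; 7.62, 6.57, 6.94 and 6.52 with no, against 5.93, 6.25, 4.7 and 4.8 on full NTBC) and did not pass in Fah-/- (0.21 ± 0.34). The interaction did not pass (1.28 ± 0.48), so the genotypes were not shown to differ.

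**Figure D4:**
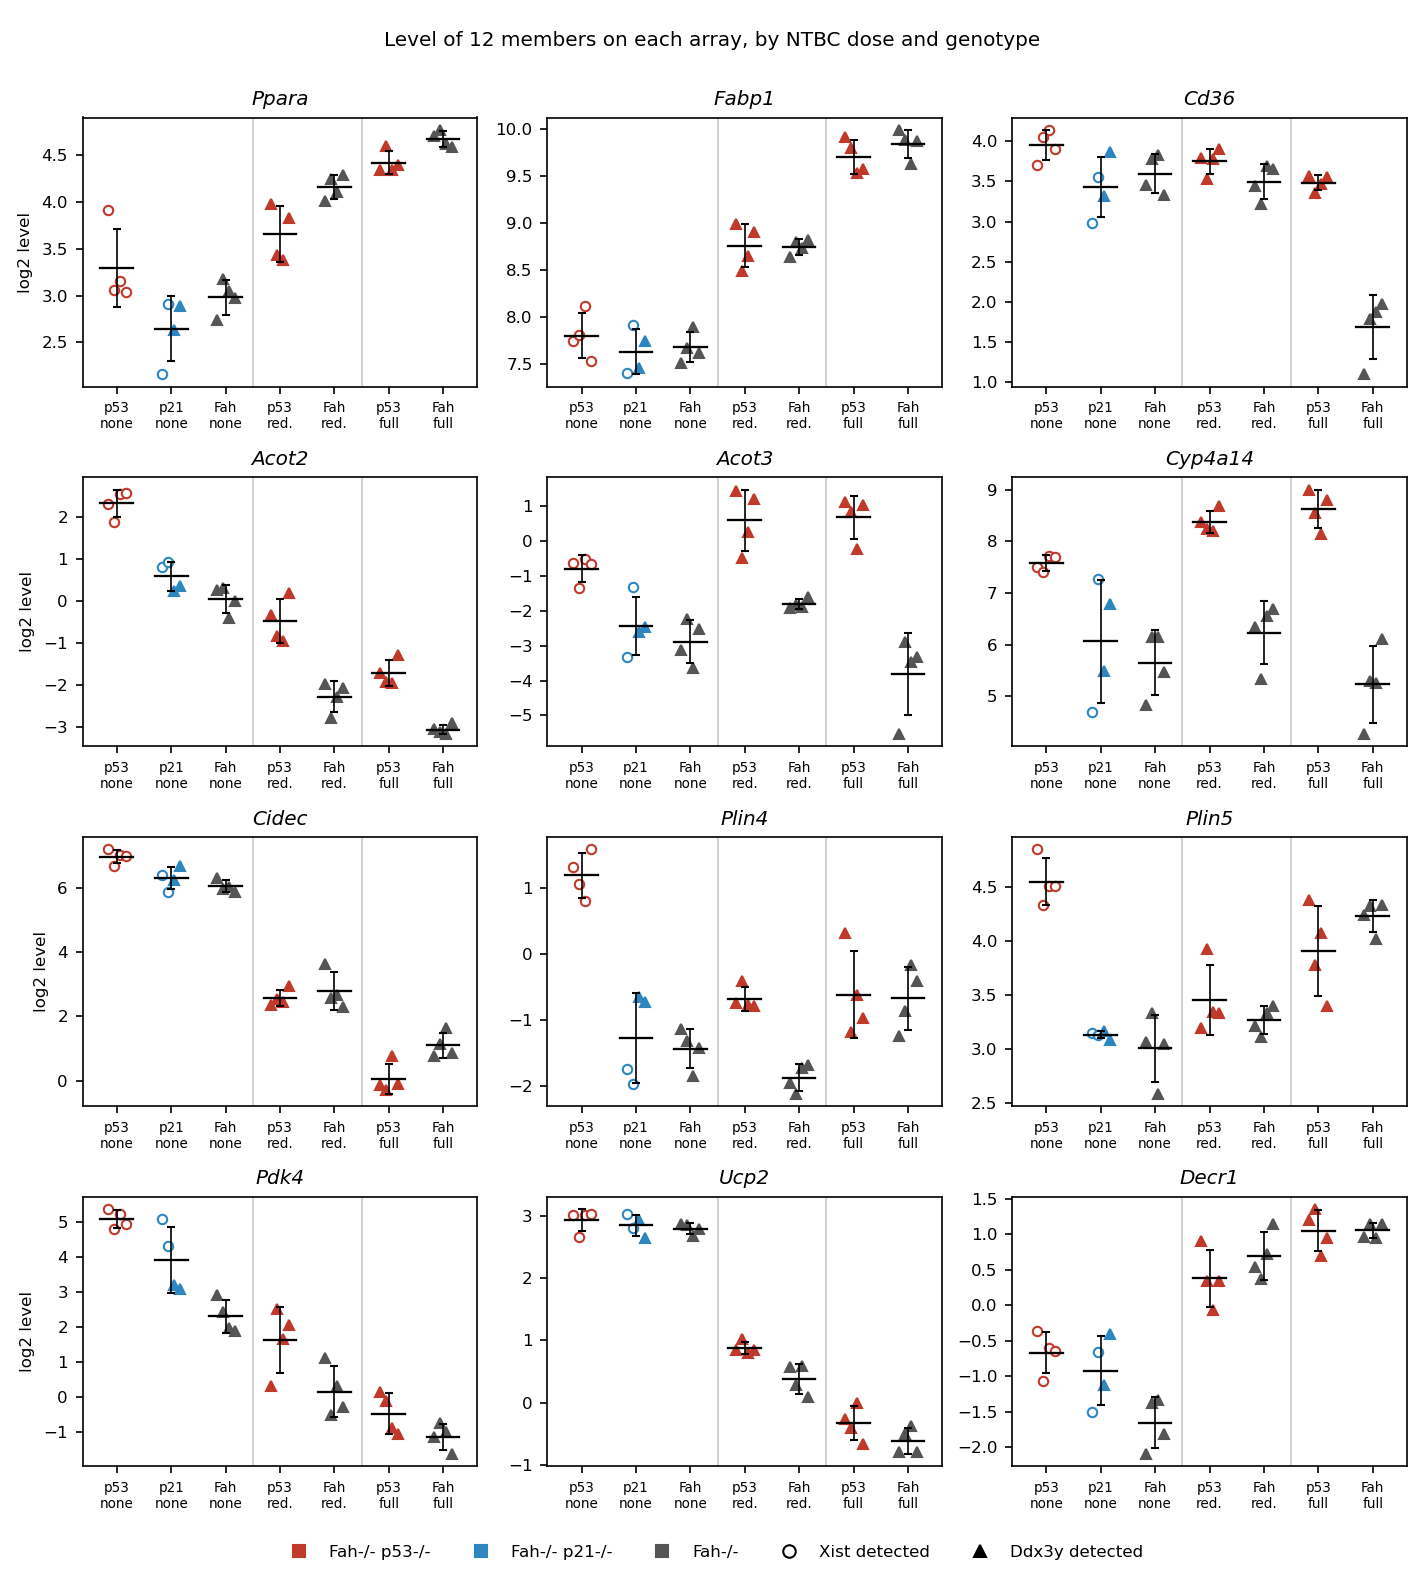
Log2 level of 12 members on each array, with no, reduced and full NTBC from left to right and Fah-/- p53-/- before Fah-/- p21-/- and Fah-/- within a dose; bars are the mean and 1 SD of 4 arrays. Open circles are arrays with Xist and filled triangles arrays with Ddx3y. With no NTBC Plin4 and Plin5 stand higher in Fah-/- p53-/- than in the other genotypes, Cyp4a14 and Acot3 are above Fah-/- in Fah-/- p53-/- at every dose, and Cd36 is low in Fah-/- on full NTBC alone.

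Further genes of these pathways that are no members were counted in the same way. With no against full NTBC 29.6% of all features were higher and 40.1% lower in Fah-/- p53-/-, and 29.3% higher and 41.6% lower in Fah-/-. Of 16 further genes of mitochondrial fatty acid oxidation, 1 was higher and 13 lower with no against full NTBC in Fah-/- p53-/- (median -1.81), and 0 were higher and 15 lower in Fah-/- (median -1.79). Pccb, a subunit of propionyl-CoA carboxylase, fell by 3.41 ± 0.15 in Fah-/- p53-/- and 3.4 ± 0.15 in Fah-/-, and Acsm1, a medium-chain acyl-CoA synthetase, by 2.97 ± 0.15 in Fah-/- p53-/- and 2.66 ± 0.15 in Fah-/-. Of 20 further peroxisomal genes 2 were higher and 15 lower in Fah-/- p53-/-, and 3 higher and 14 lower in Fah-/-. Phyh, the hydroxylase of phytanic acid breakdown, fell by 3.61 ± 0.17 in Fah-/- p53-/- and 4.02 ± 0.17 in Fah-/-.

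Further droplet and lipolysis genes were mixed, with 8 higher and 5 lower of 18 in Fah-/- p53-/- and 7 higher and 6 lower in Fah-/-. Among all features the shares were 29.6% higher and 40.1% lower in Fah-/- p53-/-, and 29.3% and 41.6% in Fah-/-. Abhd5, the activator of the main triglyceride lipase, rose by 2.81 ± 0.16 in Fah-/- p53-/- and 2.64 ± 0.16 in Fah-/-, and Cidea, a relative of Cidec, by 6.15 ± 0.56 in Fah-/- p53-/- and 5.16 ± 0.56 in Fah-/-. With no NTBC 6 of the 18 were higher and 1 lower in Fah-/- p53-/- than in Fah-/-, among them Plin1 at 1.68 ± 0.34 and G0s2, an inhibitor of that lipase, at 1.67 ± 0.31. Of 15 other PPARA targets 9 were higher and 0 lower in that comparison, where 7.65% of all features were higher and 6.6% lower. Some of these stand in more than 1 list. All 4 Fah-/- p53-/- arrays with no NTBC were female and all 4 Fah-/- arrays male. Of the 22 member calls there 4 passed with a term for sex and 11 with normexp. For the further genes these alternatives were not examined. Of 14 measured genes of uptake and activation 6 were higher and 7 lower with no against full NTBC in Fah-/- p53-/-, and 4 higher and 8 lower in Fah-/-, and Slc27a5, a bile acid and fatty acid CoA ligase, fell by 3.0 ± 0.20 in Fah-/- p53-/- and 2.37 ± 0.20 in Fah-/-. Among 17 partners and coregulators 3 were higher and 10 lower in Fah-/- p53-/-, and 4 higher and 8 lower in Fah-/-; Rxra, the partner with which PPARA binds DNA, fell by 1.61 ± 0.10 in Fah-/- p53-/- and 1.59 ± 0.10 in Fah-/-.

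Of 8 further omega oxidation genes measured, 2 were higher and 5 lower in Fah-/- p53-/- than Fah-/- on full NTBC. Over all features 6.34% were higher and 7.59% lower in that comparison. Cyp4a12a, a male-predominant hydroxylase of mouse liver, was lower by 7.24 ± 0.62 there, although all 8 arrays were male by Ddx3y, and Cyp4a31, a further gene of that family, was higher by 1.48 ± 0.33. Of the 20 further peroxisomal genes 3 were higher and 3 lower in that comparison. Among them Abcd2, a peroxisomal transporter of very-long-chain acyl-CoA, was higher by 3.9 ± 0.30. Genes of the fed state fell together: of 10 genes 0 were higher and 9 lower with no against full NTBC in each genotype, with Scd1, the stearoyl-CoA desaturase, at -5.54 ± 0.49 in Fah-/-. Of 8 fasting genes measured 2 were higher and 5 lower in each genotype. The shares over all features were 29.6% higher and 40.1% lower in Fah-/- p53-/-, and 29.3% and 41.6% in Fah-/-. Fgf21, a fasting hormone of the liver and PPARA target, rose by 5.88 ± 0.57 in Fah-/- p53-/-, and its value in Fah-/- is not given here. Fbp1, an enzyme of gluconeogenesis, fell by 3.28 ± 0.17 in Fah-/- p53-/- and 3.08 ± 0.17 in Fah-/-. The Fah-/- p53-/- arrays with no NTBC were female and those on full NTBC male, and a term for sex was not examined for these genes. Clock genes, whose level follows the time of day, also differed with dose: of 13 measured 2 were higher and 8 lower in Fah-/- p53-/-, and 2 higher and 5 lower in Fah-/-. The time of sampling is given only as daytime, and the part of feeding and hour in these values was not tested.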

How the data were processed

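Liver RNA was hybridised to 28 Agilent one-colour mouse arrays, 4 in each of 7 groups. The authors' deposited scanner files give for each spot a processed signal, an intensity on a linear scale, corrected for background and not scaled between arrays. Per the file headers Feature Extraction was 10.7.3.1, while 10.5 stands in the submitters' processing notes. The deposited value table gives log2 intensities whose array medians lie between 6.89 and 6.91. It was used as an alternative, and its correlation with the log2 median spot signal (0.990 to 0.999 by array) shows the log2 scale. Its normalization is not stated in the sources used. Groups came from the genotype and treatment labels.

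From these files, the log2 processed signal minus the log2 of the array's 75th percentile was computed, spots flagged as outliers and control spots were left out, and spots of a probe were averaged. Of 41174 probes, 28462 had a symbol, matched by accession to RefSeq names, and 27506 had 1 group or more in which all 4 arrays read well above background. A gene was represented by its brightest passing probe on average, which gave 20300 features, 14571 of them with a symbol. The limma fit (version 3.58.1 in R 4.3.3) used all 7 group means with 21 residual degrees of freedom, 13 comparisons and Benjamini-Hochberg adjustment over all features; a call needs an adjusted p under 0.05, and ± after a log2 difference is its standard error. No spot was saturated, and the number of arrays limits the precision. Simulated data of 20300 features, 200 of them changed, were tested for reduced against full NTBC. In Fah-/- 64 of 100 features changed by 1 and 97 of 100 changed by 2 on the log2 scale were called. In Fah-/- p53-/- these were 72 and 93. Unchanged features called were 5 in Fah-/- and 11 in Fah-/- p53-/-. In the data 39.8% of features passed in each genotype, so these rates may not hold there.

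The settings changed in turn were the background (normexp, offset 50, on the median spot and background signals, since the mean signal was not used here), quantile normalization, scaling by the median, the deposited table, other filters, the mean of a gene's probes, other variance moderation, replicate number, slide or sex as a term, the compared groups alone and each array left out. Keeping outlier spots, and comparing male or female Fah-/- p21-/- arrays alone, were added after seeing the data. Sex was read from the Xist and Ddx3y probes, and slide and scan day from the file headers. Promoter windows are RefSeq's for GRCm38.p6. Replicate numbers did not pair samples: same-numbered samples' deviations correlated at -0.23 to 0.36. The 38 members and all gene lists were chosen with earlier results of these data known. Beside members, at most 4 genes per list and comparison were named, those called with the smallest adjusted p, plus the genes of the label check.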

Additional observations from a re-analysis of the deposited data

Results flagged for a closer look

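Some arrays stood far from the other 3 of their group: the gap to the nearest, divided by the group's range, was above Dixon's 95% limit for 4 samples. This held for 12 of 265 sets of 4 values, and chance alone gives about 1 in 20. Ppara read 3.91 on replicate 1 of Fah-/- p53-/- with no NTBC, where the other 3 arrays gave 3.04 to 3.16. Acadvl read 7.03 on replicate 3 of Fah-/- on reduced NTBC, where the other 3 arrays gave 6.77 to 6.78. Hadh read 5.82 on replicate 4 of Fah-/- on reduced NTBC, where the other 3 arrays gave 6.18 to 6.20. Hadh read 6.18 on replicate 2 of Fah-/- on full NTBC, where the other 3 arrays gave 5.74 to 5.78. Acaa1b read 6.64 on replicate 1 of Fah-/- p53-/- on reduced NTBC, where the other 3 arrays gave 6.11 to 6.18. Acaa2 read 7.64 on replicate 1 of Fah-/- p53-/- with no NTBC, where the other 3 arrays gave 8.13 to 8.22. Acaa2 read 8.55 on replicate 3 of Fah-/- p53-/- on full NTBC, where the other 3 arrays gave 8.66 to 8.68. Acot1 read 6.41 on replicate 2 of Fah-/- p53-/- with no NTBC, where the other 3 arrays gave 6.94 to 7.02. Acot3 read -1.36 on replicate 2 of Fah-/- p53-/- with no NTBC, where the other 3 arrays gave -0.66 to -0.53. Plin4 read -0.42 on replicate 2 of Fah-/- p53-/- on reduced NTBC, where the other 3 arrays gave -0.80 to -0.75. Eci2 read 7.36 on replicate 2 of Fah-/- p21-/- with no NTBC, where the other 3 arrays gave 6.83 to 6.87. Ucp2 read 2.66 on replicate 2 of Fah-/- p53-/- with no NTBC, where the other 3 arrays gave 3.01 to 3.03.

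The response to less NTBC differed between Fah-/- p53-/- and Fah-/- by the interaction term of the limma fit (response in Fah-/- p53-/- minus response in Fah-/-, log2, adjusted p under 0.05). For reduced NTBC these were Acot1 (1.20) and Cd36 (-1.54). For no NTBC they were Acot1 (1.42), Acot3 (-2.39), Acsl1 (1.0), Cd36 (-1.44), Cidec (1.97), Cpt1b (1.39), Cpt2 (0.67), Eci2 (0.90), Hadha (0.82), Hadhb (0.76), Pdk4 (2.13), Plin2 (0.87), Plin4 (2.57) and Plin5 (1.86). All 4 Fah-/- p53-/- arrays with no NTBC were female by Xist and all other Fah-/- p53-/- and Fah-/- arrays male. With a term for sex 6 members passed for no NTBC.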

How the results depend on the processing

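Counts of members called, of 38, moved by over 1.5 times as follows. With normexp they were 9 for reduced against full NTBC in Fah-/- (18 in the main setting), 4 for Fah-/- p53-/- against Fah-/- on reduced NTBC (10), 11 with no NTBC (22), 0 for Fah-/- p21-/- against Fah-/- (5), 5 for Fah-/- p53-/- against Fah-/- p21-/- (14), and 0 and 3 for the interactions with reduced (2) and no NTBC (14). Fah-/- p53-/- against Fah-/- p21-/- gave 24 with quantile normalization and 25 in the deposited table. Fah-/- p21-/- against Fah-/- gave 3 with scaling by the median, no filter or slide as a random block, and scaling by the median left 1 interaction with reduced NTBC. A term for sex gave 4, 1 and 5 for Fah-/- p53-/- against Fah-/-, Fah-/- p21-/- against Fah-/- and Fah-/- p53-/- against Fah-/- p21-/-, and 4 and 6 interactions. With the groups alone the last 2 of these genotype comparisons gave 0 and 4, and the interaction with reduced NTBC 4. Slide as a fixed block gave 9, 0 and 3 and the shared slide alone 6, 1 and 5; male arrays alone gave 1 and female arrays alone 5. Without 1 array there were 11 to 16, 11 to 14, 28 to 29, 30 to 33, 25 to 26, 26 to 31, 9 to 11, 7 to 9, 20 to 24, 2 to 6, 8 to 17, 1 to 4 and 11 to 16, in the order reduced against full, no against full and no against reduced NTBC (each Fah-/-, then Fah-/- p53-/-), Fah-/- p53-/- against Fah-/- on full, reduced and no NTBC, Fah-/- p21-/- against Fah-/-, Fah-/- p53-/- against Fah-/- p21-/-, and the 2 interactions. The first fell to 11 without Fah-/- replicate 1 on reduced NTBC. Fah-/- p21-/- against Fah-/- fell to 2 or 3 without Fah-/- replicate 1, 2 or 4 or Fah-/- p21-/- replicate 1, 2 or 4. Fah-/- p53-/- against Fah-/- p21-/- fell to 8 without Fah-/- p21-/- replicate 3 and 9 without Fah-/- p53-/- replicate 3 or 4. The interaction with reduced NTBC was 1 without Fah-/- replicate 1 or 4 on full, Fah-/- replicate 2 or Fah-/- p53-/- replicate 4 on reduced NTBC, and 4 without Fah-/- p53-/- replicate 1 on full NTBC. With replicate number as a replicate block 224 of 228 calls passed, 4 did not and 6 were added.

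Over the 494 member differences and all alternatives, 39 values turned direction and passed in the main fit or in the alternative. A difference is listed once for each alternative that turned it, and other changes of sign are not listed. Quantile normalization gave Hsd17b4 0.32 for reduced against full NTBC in Fah-/- p53-/-. It gave Acadm 0.57, Cpt1a 0.028, Eci2 0.41 for no against full NTBC in Fah-/-. It gave Acaa2 0.52, Acadm 0.49, Cpt2 0.72, Cyp4a10 0.79, Cyp4a14 0.0031, Eci1 0.36, Hsd17b4 0.33 for no against full NTBC in Fah-/- p53-/-. It gave Acadm 0.15, Eci2 0.15 for no against reduced NTBC in Fah-/-. It gave Acaa2 0.46, Acadvl 0.050, Cpt2 0.27, Hsd17b4 0.015 for no against reduced NTBC in Fah-/- p53-/-. The deposited table gave Hsd17b4 0.45 for reduced against full NTBC in Fah-/- p53-/-. It gave Acadm 0.50, Cpt1a 0.051, Cpt2 0.016, Eci2 0.43 for no against full NTBC in Fah-/-. It gave Acaa2 0.60, Acadm 0.52, Acadvl 0.035, Cpt1a 0.36, Cpt2 0.70, Cyp4a10 0.83, Eci1 0.37, Hsd17b4 0.36 for no against full NTBC in Fah-/- p53-/-. It gave Acadm 0.12, Eci2 0.26 for no against reduced NTBC in Fah-/-. It gave Acaa2 0.48, Acadvl 0.23 for no against reduced NTBC in Fah-/- p53-/-. Normexp gave Hsd17b4 0.67, Plin5 0.068 for reduced against full NTBC in Fah-/- p53-/-. It gave Acadm 0.16, Eci1 0.050 for no against full NTBC in Fah-/- p53-/-. The term for sex gave Acadl -0.052 for no against reduced NTBC in Fah-/- p53-/-. The cause was not tested.

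Over all features, counts called moved by over 1.5 times (main setting in brackets). There were 2000 with normexp for reduced against full NTBC in Fah-/- (8071). There were 12235 with no filter for reduced against full NTBC in Fah-/- p53-/- (8087). There were 22528 with no filter for no against full NTBC in Fah-/- (14387). There were 21608 with no filter for no against full NTBC in Fah-/- p53-/- (14157). There were 6729 with normexp and 20630 with no filter for no against reduced NTBC in Fah-/- (13049). There were 5684 with normexp for no against reduced NTBC in Fah-/- p53-/- (12443). There were 220 with normexp, 5016 with scaling by the median, 2104 with the deposited table, 6517 with no filter and 2064 with the filter on all 28 arrays for Fah-/- p53-/- against Fah-/- on reduced NTBC (3175). There were 725 with normexp, 277 with a term for sex, 1335 with the groups alone, 343 with slide as a block and 535 with the shared slide alone for Fah-/- p53-/- against Fah-/- with no NTBC (2892). There were 183 with normexp, 545 with a term for sex, 352 with the groups alone, 85 with slide as a block, 205 with the shared slide alone and 545 with male arrays only for Fah-/- p21-/- against Fah-/- (1529). There were 467 with normexp, 492 with the groups alone, 188 with slide as a block and 529 with the shared slide alone for Fah-/- p53-/- against Fah-/- p21-/- (2233). There were 78 with normexp for the interaction with reduced NTBC (2107). There were 239 with normexp and 605 with a term for sex for the interaction with no NTBC (1850).

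The share of calls that were higher moved by over 10 points as follows (main setting in brackets). It was 24.7% with normexp and 35.3% with scaling by the median for reduced against full NTBC in Fah-/- p53-/- (50.9%). It was 31.0% with normexp for no against full NTBC in Fah-/- (41.4%). It was 32.3% with normexp for no against full NTBC in Fah-/- p53-/- (42.5%). It was 53.7% with scaling by the median and 48.6% with the deposited table for no against reduced NTBC in Fah-/- p53-/- (37.8%). It was 22.3% with normexp and 28.3% with scaling by the median for Fah-/- p53-/- against Fah-/- on full NTBC (45.5%). It was 51.4% with normexp and 25.4% with scaling by the median for Fah-/- p53-/- against Fah-/- on reduced NTBC (62.9%). It was 41.4% with scaling by the median for Fah-/- p53-/- against Fah-/- with no NTBC (53.7%). It was 33.3% with scaling by the median for Fah-/- p53-/- against Fah-/- p21-/- (45.8%). It was 75.6% with normexp and 46.0% with scaling by the median for the interaction with reduced NTBC (64.9%). The median of all features, no against full NTBC in Fah-/- was -0.40 with normexp and -0.66 with no filter. No member's call changed when outlier spots were kept.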
